A study of Mus musculus with 9 samples.

Results

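The proteasome genes described here were the protein-coding genes of the authors' tables whose symbol is Psm followed by a letter from a to g and a number, without Psmb8 and Psmb9. They numbered 49 of the 29316 genes in those tables. The rule used names and not values, but it was set with earlier results of these data known. By role they comprised 14 constitutive subunits of the 20S core (Psma1 to Psma7 and Psmb1 to Psmb7), 3 core subunits of restricted tissues or of the interferon response (Psma8, Psmb10 and Psmb11), 9 subunits of the base and 8 of the lid of the 19S particle, 5 activators and inhibitors (Psme1 to Psme4 and Psmf1), 7 assembly chaperones (Psmg1 to Psmg4, Psmd5, Psmd9 and Psmd10) and 3 genes that share only the name (Psmc3ip, Psme3ip1 and Psme2b). Polyadenylated RNA of the gastrocnemius, a calf muscle, was sequenced from wild-type mice, C57BL/6 by the labels and C57BL/6J by the paper, with 4 Control libraries from conventional cages, 2 Unloading libraries from mice unloaded for 10 days by hindlimb suspension, and 3 Reloading libraries 1 day after load was restored. No genetic change or drug was part of any group, and the ages of these mice were not given in the sources used here. In hindlimb unloading a line on the tail lifts the hindquarters so that the hind legs carry no weight, and the muscle shrinks. The labels call the mice male while the methods describe females, and Xist had 0 to 5 counts per library with at least 164 counts for each Y-linked gene looked at.

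The proteasome is the protease that degrades most ubiquitin-tagged proteins. Its 20S core is a barrel of alpha and beta rings in which Psmb5, Psmb6 and Psmb7 carry the proteolytic sites, and the 19S particle on its ends binds ubiquitin chains, removes them and threads the substrate into the barrel by means of the ATPases of its base. Other caps can take the place of the 19S particle, namely the PA28 rings made of Psme1 and Psme2 or of Psme3, and the PA200 protein encoded by Psme4. In skeletal muscle this system degrades myofibrillar proteins and is known for its part in atrophy.

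Library totals ranged from 9252443 to 19612101 read pairs in genes. The trimmed mean of M-values (TMM), which scales libraries so that most genes do not differ, gave factors of 0.928 to 0.960 in Control, 0.935 to 0.949 in Unloading and 1.11 to 1.13 in Reloading, and all counts per 1000000 (CPM) below carry this scaling. Skeletal muscle markers summed to 194876 to 209868 CPM in Control, 205764 to 208272 CPM in Unloading and 142834 to 156893 CPM in Reloading, with 8 of 10 lower in Reloading than in Unloading. Of 17 macrophage markers, 14 were higher in Reloading than in Unloading, and their sum was 105 to 128 CPM in Control, 107 to 109.7 CPM in Unloading and 203 to 229.8 CPM in Reloading. Of 10 endothelial markers, 9 were higher in that comparison, and no marker of these 3 lists was at 0 in all libraries. The part of these shifts in the proteasome results was not tested, and in whole muscle fewer cells of a type and less RNA per cell cannot be told apart. Skin keratins stood out in Control 2 (233 CPM summed) and Reloading 1 (116 CPM summed).

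The constitutive subunits were all well expressed in this muscle, but their RNA levels per exon length were not equal even though the assembled particle holds each of them in fixed number. Per exon length, the Control means of the 14 core subunits ran from 18.3 CPM per kb for Psmb1 to 98.5 CPM per kb for Psma6, a range of 5.38-fold. The length is that of all annotated exons of a gene, 4595 bases for Psmb1, 1234 for Psma6 and 6383 for Psmd11. Before division by length, Psmb1 and Psma6 had Control means of 84.2 and 121.5 CPM. How much of these ranges comes from the annotated length was not tested. The 17 subunits of the 19S particle ran from 14.5 CPM per kb for Psmd11 to 96.5 CPM per kb for Psmc5, one of the base ATPases. Assembly chaperones and the inhibitor Psmf1 lay lower, from 1.29 CPM per kb for Psmg3 to 9.17 CPM per kb for Psmg2. Psme4 was the most abundant activator, at 54.3 CPM per kb in Control against 19.8 for Psme3, 13.7 for Psme1 and 12.5 for Psme2. The testis-type alpha subunit Psma8 and the thymus-type beta subunit Psmb11 were close to undetected, with 5 and 2 counts over all 9 libraries, and these were the 2 members that did not pass the filter on low counts. Of the name matches, Psme2b stayed at or below 1.36 CPM in every library.

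**Figure D1:**
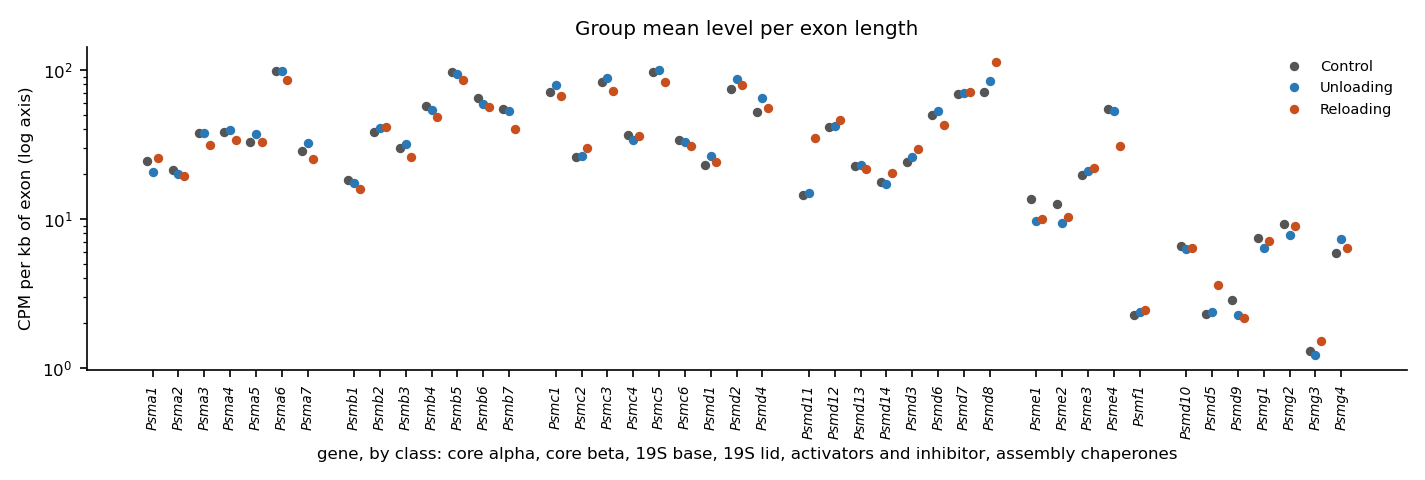
Mean level of each member in Control, Unloading and Reloading, in TMM-scaled CPM per kb of exon on a log axis, with 1 point per gene and group. Psmd11 was the lowest 19S subunit in Control and Unloading and Psmd14 in Reloading, and Psme4 was the highest activator in all 3 groups.

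Promoter sequence from RefSeq (GRCm38.p6, from 250 bases before the gene start) was at hand for 41 of the 49 members. The letters TGACNNNGC, the core of the antioxidant response element and of the related site through which the factor Nfe2l1 is known to act on proteasome genes, occurred on either strand in 6 of the 41 (14.6%) and in 14.0% of all 27025 promoters in the table. These letters can overlap a cyclic AMP response element. In 4 of the 6 promoters the match lay close to the gene start as RefSeq gives it, and these windows are shown because they include the activator with the largest change and the catalytic subunits Psmb5 and Psmb6. The match is in capitals, with each window written on the strand of its gene:
Psmb5 (chr14:54618025-54618051, gene on the minus strand): gtgaagttgTGACGTCGCggcgttgcc
Psmb6 (chr11:70525339-70525365, gene on the plus strand): taaagagagTGACGGAGCgctttacga
Psmd9 (chr5:123228150-123228176, gene on the plus strand): tctagccggTGACCCCGCccacttcca
Psme4 (chr11:30771759-30771785, gene on the plus strand): gctgcggctGCAGCGTCAccagaagag
The capitals of Psme4 read as the match on the opposite strand. For Psmd9, the gene as counted begins far upstream of this RefSeq start. The letters CCAAT, which bind NF-Y and did not overlap the first motif by their letters, were found on either strand in 15 of 41 member promoters (36.6%) and in 41.1% of all promoters, and a full heat shock element of alternating inverted GAA units in 0 of 41 and in 0.662%. The window of Psmd11 held none of these motifs.

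When load was restored, the lid subunit Psmd11 and the interferon-induced core subunit Psmb10 rose most and the activator Psme4 fell most. In Reloading against Unloading, 6 members were higher (Psmd11, Psmb10, Psmd5, Psmd8, Psma1 and Psmd14), 11 were lower (Psme4, Psmb7, Psma7, Psmd6, Psmc3, Psmb3, Psma3, Psmc5, Psmc1, Psma4 and Psmd4) and 30 did not pass the test, which was edgeR's quasi-likelihood F-test with Benjamini-Hochberg adjustment over all 14851 tested genes and a threshold of 0.05. The share of members called, 36.2%, was near the background of 37.5% of all tested genes called, with 18.5% higher and 19% lower. The median log2 fold change was -0.07 over the 47 tested members and 0.03 over all tested genes. Called core subunits were lower in all but 1 case, with 1 higher and 5 lower of 14 and a median of -0.17. In the 19S base 0 were higher and 4 lower of 9, and in the lid 3 were higher and 1 lower of 8. Without Unloading 2 the lower core genes numbered 2, and without Unloading 1, Unloading 2 or Reloading 2 the lower base genes numbered 2. At an unadjusted p under 0.05 the base had 1 higher, Psmc2, and the DESeq2 test called none of the base higher. These directions hold for TMM scaling: with library totals alone 19 members were higher and 1 lower, and the core median was 0.08 beside 0.27 for all tested genes.

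**Figure D2:**
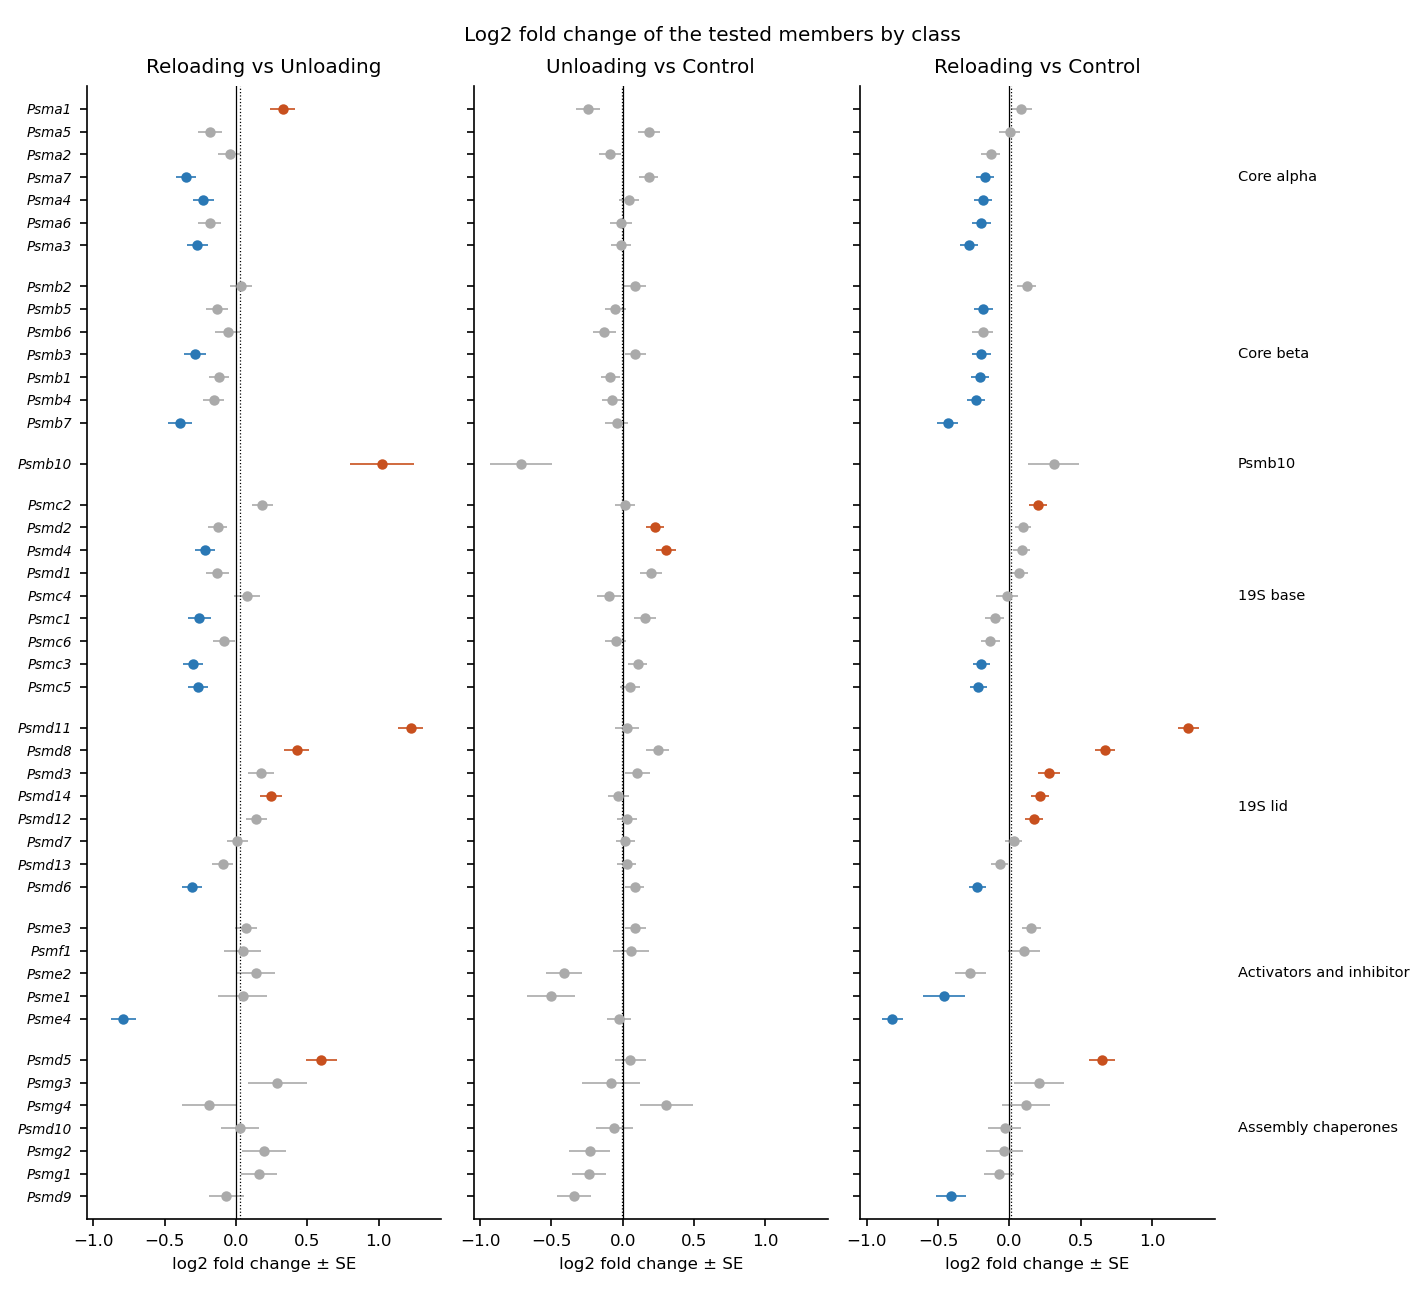
Log2 fold change with its SE for the 44 tested members other than the name matches, by class, in the 3 comparisons; orange points were higher and blue points lower at an adjusted p under 0.05, gray points did not pass (TMM scaling), and the dotted line is the median of all tested genes. Psmd11 is the highest point and Psme4 the lowest in both comparisons with Reloading, and few points are colored in Unloading vs Control.

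Psmd11 is the lid subunit known as Rpn6, which braces the lid against the core. At chr11:80428615-80473248 of GRCm38, it measured 91.9, 87.5, 92.2 and 98.6 CPM in Control 1 to 4, 96.5 and 92.6 CPM in Unloading 1 and 2, and 229, 236 and 197 CPM in Reloading 1 to 3. All 3 Reloading libraries lay far above the other 6, with a mean of 221 ± 20.6 CPM (SD, n = 3) against 94.5 ± 2.78 CPM (SD, n = 2) in Unloading and 92.5 ± 4.58 CPM (SD, n = 4) in Control. By edgeR, Reloading was 2.34-fold higher than Unloading (log2 fold change 1.22 ± 0.09 (SE), adjusted p = 1.81e-07) and 2.39-fold higher than Control (adjusted p = 7.29e-09), while Unloading and Control did not differ by the test (adjusted p = 0.857). Relative to the summed counts of the other lid genes in the same library, a ratio that no scaling between libraries can move, Psmd11 stood at 0.111, 0.0989, 0.104 and 0.113 in Control 1 to 4, 0.107 and 0.0968 in Unloading 1 and 2, and 0.225, 0.227 and 0.195 in Reloading 1 to 3.

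Psmd8, the lid subunit Rpn12, was the other lid gene with a large difference and was singled out after its values were seen. It measured 195, 222, 232 and 221 CPM in Control 1 to 4, 244 and 272 CPM in Unloading 1 and 2, and 332, 366 and 342 CPM in Reloading 1 to 3. The Unloading libraries sat above all Control libraries and below all Reloading libraries. By edgeR the step from Unloading to Reloading passed (log2 fold change 0.43 ± 0.09 (SE), adjusted p = 0.00141), the full difference from Control was 1.59-fold (log2 fold change 0.67 ± 0.07 (SE), adjusted p = 3.37e-06), and the step from Control to Unloading did not pass (log2 fold change 0.25, adjusted p = 0.0683). Per exon length it became the most abundant 19S RNA in Reloading, at 113 CPM per kb, above 83.0 CPM per kb for Psmc5.

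The other lid genes did not follow one direction. Of all 8 lid genes, 6 had a log2 fold change above 0 in Reloading against Unloading, and 6 against Control. Psmd3 and Psmd12 were called higher in Reloading only against Control, and Psmd12 (adjusted p = 0.0327 by edgeR) lost its call in the DESeq2 test. Psmd14, the deubiquitinase of the lid, measured 50.4, 49.9, 48.5 and 48.8 CPM in Control 1 to 4, 49.9 and 47.0 CPM in Unloading 1 and 2, and 57.0, 60.02 and 54.9 CPM in Reloading 1 to 3, with every Reloading library above all others. Its difference from Unloading was small (log2 fold change 0.24 ± 0.08 (SE), adjusted p = 0.0202 by edgeR) and was lost in the DESeq2 test (adjusted p = 0.0686) and without Unloading 2 (0.163) or Reloading 2 (0.0833). Psmd6 went the other way, at 137, 144, 132 and 142 CPM in Control 1 to 4, 143 and 151 CPM in Unloading 1 and 2, and 115, 118 and 122 CPM in Reloading 1 to 3, and was the lower lid gene of Reloading against Unloading (log2 fold change -0.31, edgeR adjusted p = 0.00364). Psmd7 and Psmd13 passed in none of the 3 comparisons, with log2 fold changes of 0.01 and -0.09 for Reloading against Unloading. Of the exon bases of Psmd13, 10.1% overlap Sirt3 on the opposite strand, and the counting did not use strand.

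In the base, the ATPases Psmc1, Psmc3 and Psmc5 and the ubiquitin receptor Psmd4 were lower in Reloading than in Unloading. Psmc3 measured 209.5, 211, 215 and 221 CPM in Control 1 to 4, 225 and 236 CPM in Unloading 1 and 2, and 187, 178 and 196 CPM in Reloading 1 to 3, and Psmc5 137, 134, 136 and 132 CPM in Control 1 to 4, 135 and 144 CPM in Unloading 1 and 2, and 114, 111 and 121 CPM in Reloading 1 to 3. Reloading was below every Unloading library for both, with log2 fold changes of -0.30 (edgeR adjusted p = 0.00394) and -0.27 (adjusted p = 0.00874). The call of Psmc5 was lost without Unloading 2, that of Psmc1 without Unloading 1, Unloading 2 or Reloading 2, and that of Psmd4 without Unloading 1, Reloading 2 or Reloading 3. For Psmc3, 8.25% of exon bases overlap Slc39a13 on the opposite strand.

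Among the core genes Psmb7, the subunit with trypsin-like activity, fell most. It measured 199.9, 176, 174 and 191 CPM in Control 1 to 4, 169.5 and 189.8 CPM in Unloading 1 and 2, and 133, 135 and 144 CPM in Reloading 1 to 3, and no Reloading library reached the level of any other library. Its log2 fold change was -0.39 against Unloading (edgeR adjusted p = 0.00195) and -0.43 against Control (adjusted p = 1.76e-04), with 11.8% of its exon bases overlapping Nek6 on the opposite strand. The other catalytic subunits moved less. Psmb5, with chymotrypsin-like activity, measured 81.6, 89.8, 87.0 and 90.1 CPM in Control 1 to 4, 79.3 and 88.7 CPM in Unloading 1 and 2, and 77.4, 79.0 and 73.9 CPM in Reloading 1 to 3, and Psmb6, with caspase-like activity, 112, 130.3, 120.0 and 119.7 CPM in Control 1 to 4, 101 and 119 CPM in Unloading 1 and 2, and 107, 101.7 and 109 CPM in Reloading 1 to 3. Against Unloading neither passed (adjusted p = 0.206 and 0.630), and against Control Psmb5 passed narrowly at a log2 fold change of -0.18 (adjusted p = 0.0371) and Psmb6 at -0.19 did not (adjusted p = 0.0514).

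Of the alpha subunits, which form the gate rings, Psma7, Psma3 and Psma4 were lower and Psma1 was higher in Reloading than in Unloading. Psma7 measured 86.5, 84.5, 88.3 and 89.4 CPM in Control 1 to 4, 95.8 and 101.8 CPM in Unloading 1 and 2, and 77.3, 76.8 and 78.3 CPM in Reloading 1 to 3, and had a log2 fold change of -0.35 (edgeR adjusted p = 0.00121). Psma3 measured 146, 148, 142 and 153 CPM in Control 1 to 4, 139 and 154 CPM in Unloading 1 and 2, and 124, 118 and 122 CPM in Reloading 1 to 3, and had a log2 fold change of -0.27 (adjusted p = 0.00923), a call lost without Unloading 2. Both were lower in all 3 Reloading libraries than in any Unloading library. The call of Psma4 was lost without Unloading 1, Unloading 2 or Reloading 2. Psma1 at 71.4, 68.5, 74.9 and 71.9 CPM in Control 1 to 4, 54.3 and 66.5 CPM in Unloading 1 and 2, and 77.7, 75.4 and 74.7 CPM in Reloading 1 to 3 rested on the low Unloading 1, and its call (adjusted p = 0.00907) was lost without that library.

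**Figure D3:**
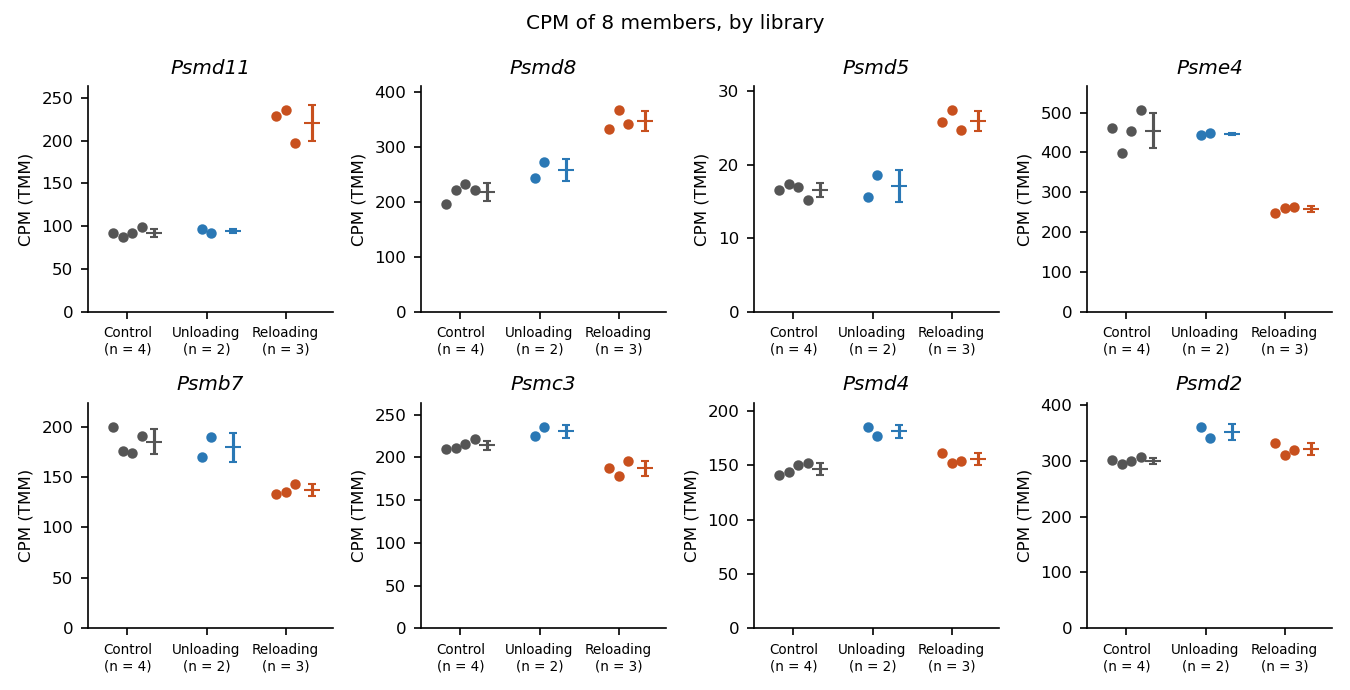
TMM-scaled CPM of 8 members in each of the 9 libraries by group, with the group mean and SD beside the points. Reloading lies above both other groups for Psmd11, Psmd8 and Psmd5 and below both for Psme4, Psmb7 and Psmc3. Unloading is above Control for Psmd4, Psmd2, Psmd8 and Psmc3.

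Of the activators and inhibitor only Psme4 passed in Reloading against Unloading, with 0 higher and 1 lower of 5 (20% called, beside 37.5% of all tested genes). The counts were the same at an unadjusted p under 0.05 and by DESeq2. Psme4 encodes PA200, a cap that opens the core independently of ubiquitin. At chr11:30771726-30880361, it measured 461, 398, 455 and 506 CPM in Control 1 to 4, 444 and 448 CPM in Unloading 1 and 2, and 249, 262 and 263 CPM in Reloading 1 to 3. Reloading libraries did not overlap the others and were 1.73-fold lower than Unloading (log2 fold change -0.79 ± 0.09 (SE), adjusted p = 9.13e-06 by edgeR) and 1.76-fold lower than Control (adjusted p = 8.44e-07). Psme3, the nuclear PA28 gamma, measured 54.1, 59.9, 57.7 and 62.0 CPM in Control 1 to 4, 61.6 and 62.7 CPM in Unloading 1 and 2, and 64.0, 65.2 and 66.1 CPM in Reloading 1 to 3 and passed in no comparison (adjusted p = 0.522 against Unloading and 0.0672 against Control). The count ratio of Psme4 to Psme3 within a library was 8.51, 6.65, 7.89 and 8.16 in Control 1 to 4, 7.21 and 7.15 in Unloading 1 and 2, and 3.90, 4.01 and 3.97 in Reloading 1 to 3. Psmf1, a proteasome inhibitor in the test tube, measured 13.1, 14.5, 16.8 and 14.0 CPM in Control 1 to 4, 16.1 and 14.5 CPM in Unloading 1 and 2, and 17.8, 13.8 and 15.7 CPM in Reloading 1 to 3, with overlapping groups and adjusted p = 0.806, 0.824 and 0.494 for Reloading against Unloading, Unloading against Control and Reloading against Control.

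Of the 7 assembly chaperones, 1 was higher and 0 lower in Reloading than in Unloading (14.3% called, beside 37.5% of all tested genes). The counts were the same at an unadjusted p under 0.05 and by DESeq2. The gene called was Psmd5, which holds ATPases of the base during assembly. It measured 16.6, 17.3, 17.0 and 15.2 CPM in Control 1 to 4, 15.6 and 18.6 CPM in Unloading 1 and 2, and 25.9, 27.4 and 24.7 CPM in Reloading 1 to 3, with every Reloading library above all others, and was 1.51-fold higher than in Unloading (log2 fold change 0.60 ± 0.11 (SE), adjusted p = 5.95e-04 by edgeR) and 1.57-fold higher than in Control (adjusted p = 4.47e-05). Psmd9, another chaperone of the base, was lower in Reloading than in Control (log2 fold change -0.41, edgeR adjusted p = 0.00581) but not than in Unloading (-0.07, adjusted p = 0.707). Psmd10 and the core chaperones Psmg1 to Psmg4 passed in no comparison.

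After 10 days without load, the proteasome genes differed little from Control. In Unloading against Control 2 members were higher, 0 were lower and 45 did not pass, a share of 4.26% beside 9.9% of all tested genes called, with 4.4% higher and 5.5% lower. At an unadjusted p under 0.05, 6 were higher and 5 lower, and the DESeq2 Wald test called 3 higher, with Psmd8 added, and 3 lower, namely Psmb10, Psme1 and Psme2. Control 3 was the highest library for these 3 lower genes. Their edgeR log2 fold changes were -0.71, -0.50 and -0.41 with all libraries. Without Control 3 they were -0.47, -0.33 and -0.33 (edgeR adjusted p = 0.101, 0.143 and 0.128). Both members called by edgeR were ubiquitin-binding subunits of the base. Psmd4, the receptor Rpn10, measured 141, 143, 150.1 and 152 CPM in Control 1 to 4, 185 and 177 CPM in Unloading 1 and 2, and 162, 152 and 153 CPM in Reloading 1 to 3, and Unloading lay above all other libraries (log2 fold change 0.30 ± 0.07 (SE), adjusted p = 0.0125 by edgeR). Psmd2, the scaffold Rpn1, measured 302, 293, 299 and 307 CPM in Control 1 to 4, 361 and 341 CPM in Unloading 1 and 2, and 332, 311 and 320.0 CPM in Reloading 1 to 3 (log2 fold change 0.23 ± 0.07 (SE), adjusted p = 0.0404). Neither call held without Unloading 1 (adjusted p = 0.162 and 0.325), when all calls in this comparison fell from 1470 to 121 genes. The call of Psmd2 was lost in 12 of 18 alternatives, among them those without any 1 of the Control libraries, whereas that of Psmd4 was lost in 1. The median log2 fold change was -0.03 for the core and 0.05 for the 19S members, beside -0.00 for all tested genes.

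Against Control, Reloading had 7 higher members (Psmd11, Psmd8, Psmd5, Psmd3, Psmd14, Psmc2 and Psmd12), 15 lower and 25 that did not pass, a share of 46.8% beside 43.5% of all tested genes called, with 22.1% higher and 21.3% lower. With TMM scaling the core and the lid went in different directions. In the core 0 were higher and 9 lower of 14 (Psma3, Psma4, Psma6, Psma7, Psmb1, Psmb3, Psmb4, Psmb5 and Psmb7), with a median log2 fold change of -0.19, whereas in the lid 5 were higher and 1 lower of 8, with a median of 0.19. No core gene was higher at an unadjusted p under 0.05 either (0 of 14), nor by DESeq2. The lower core genes numbered 4 without Reloading 1 and 5 without Control 3, Control 4, Reloading 2 or Reloading 3, and the higher lid genes 3 without Reloading 2. In the base 1 was higher and 2 lower of 9. Without Control 2 and Reloading 1, the libraries with skin keratins, 4 members were higher and 7 lower. These comparisons share the Reloading libraries, so the values against Unloading and against Control are not separate evidence.

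The direction for the core depended on the scaling of the libraries. With library totals in place of TMM, the median of all tested genes itself moved to 0.25 in Reloading against Control, the core median became 0.05 and the 19S median 0.31, and 21 members were called higher and 2 lower. Psmd6 and Psma1 were not followed for sign, and the calls of Psmd6 against Unloading and against Control were lost with library totals. Of the other called members given with values in every library, the sign turned for Psma7, Psmb5, Psmc3 and Psmc5 against Control and for Psmd4 against Unloading. None of these passed the test with library totals. The sign also turned for Psmb6 against Control and for Psmb5, Psmb6 and Psmd2 against Unloading, which passed under neither scaling. Relative to the median of all genes, the core stood at -0.20 and the 19S members at 0.05 in Reloading against Control under either scaling, and at -0.20 and -0.11 in Reloading against Unloading. A change of scaling shifts all genes nearly alike, so these relative values could hardly differ between scalings and are not separate evidence. The 49 members together took between 0.412% and 0.425% of all counts in the Control libraries, 0.427% and 0.436% in those of Unloading, and 0.479% to 0.489% in those of Reloading. Psmd11, Psmd8, Psmd5 and Psmb10 were higher and Psme4 lower in Reloading than in Unloading under every alternative tried, this scaling included.

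The balance between the RNAs of the 2 parts of the particle can be read without any scaling as the ratio of summed counts within a library. It does not measure the assembled particle. The 19S to core ratio was 1.76, 1.77, 1.80 and 1.78 in Control 1 to 4, 2.03 and 1.89 in Unloading 1 and 2, and 2.30, 2.28 and 2.23 in Reloading 1 to 3. The 3 groups did not overlap, with means of 1.78 ± 0.0188 (SD, n = 4), 1.96 ± 0.102 (SD, n = 2) and 2.27 ± 0.0371 (SD, n = 3). With TMM scaling the core sum was 1321 to 1374 CPM in Control, 1264 to 1380 in Unloading and 1157 to 1184 in Reloading. The 19S sum was 2324 to 2442, 2572 to 2609 and 2641 to 2703 CPM in the same order. A lower core sum and a higher 19S sum thus both entered the Reloading ratio. Of the lid and the base, the lid differed more in its ratio to the core in Reloading. The lid to core ratio was 0.695, 0.726, 0.731 and 0.706 in Control 1 to 4, 0.789 and 0.760 in Unloading 1 and 2, and 1.06, 1.10 and 1.02 in Reloading 1 to 3. The base to core ratio was 1.07, 1.05, 1.07 and 1.07 in Control 1 to 4, 1.25 and 1.13 in Unloading 1 and 2, and 1.24, 1.18 and 1.21 in Reloading 1 to 3, and Unloading overlapped Reloading. Without Psmd11 and Psmd8 the 19S to core ratio was 1.54, 1.54, 1.56 and 1.54 in Control 1 to 4, 1.77 and 1.63 in Unloading 1 and 2, and 1.82, 1.76 and 1.77 in Reloading 1 to 3, so that Reloading still lay above Control but overlapped Unloading. The lid to core ratio without these 2 genes was 0.473 to 0.4946 in Control, 0.4955 to 0.520 in Unloading and 0.565 to 0.583 in Reloading. This ratio for the rest of the lid thus stayed above both other groups in Reloading. It divides by the core sum, which with TMM scaling was lower in Reloading, so it does not by itself show that these lid RNAs rose. Within the core, the beta to alpha ratio overlapped between all groups, from 1.01 in Reloading 1 to 1.14 in Control 2.

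**Figure D4:**
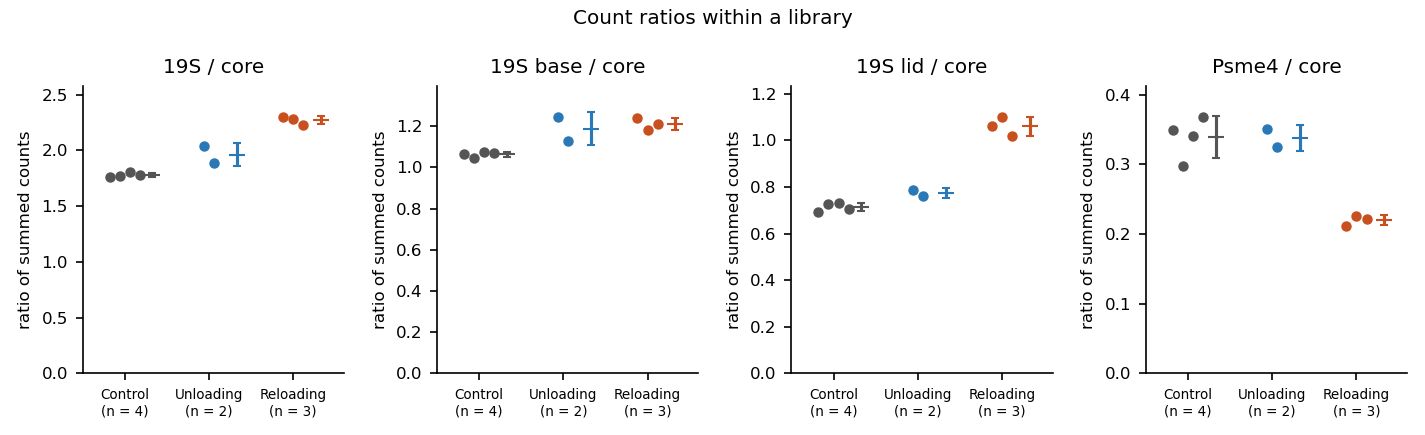
Ratio of summed read-pair counts within each library for 19S, 19S base and 19S lid genes and for Psme4, each over the 14 constitutive core genes, by group with mean and SD. The 19S to core ratio runs from 1.76 in Control 1 to 2.30 in Reloading 1, and Psme4 to core is lowest in Reloading.

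Psmb10, Psme1 and Psme2 are induced by interferon. Psmb10 replaces Psmb7 in the immunoproteasome, the form that favors peptides for antigen presentation. Psmb10 measured 11.4, 10.9, 17.2 and 8.67 CPM in Control 1 to 4, 6.29 and 8.36 CPM in Unloading 1 and 2, and 16.6, 14.97 and 13.7 CPM in Reloading 1 to 3. Reloading lay above both Unloading libraries (log2 fold change 1.03 ± 0.22 (SE), adjusted p = 0.00224 by edgeR) but not above Control 3, and against Control it did not pass (log2 fold change 0.31, adjusted p = 0.176). Psme1 measured 25.5, 32.4, 39.9 and 22.9 CPM in Control 1 to 4, 20.6 and 22.2 CPM in Unloading 1 and 2, and 21.8, 23.2 and 21.5 CPM in Reloading 1 to 3, and Psme2 22.7, 20.9, 25.7 and 18.9 CPM in Control 1 to 4, 16.6 and 16.5 CPM in Unloading 1 and 2, and 16.0, 19.96 and 18.7 CPM in Reloading 1 to 3. Control 3 was the highest library for all 3 genes. Psme1 was lower in Reloading than in Control (log2 fold change -0.46, adjusted p = 0.0199), Psme2 was not called at -0.27 (adjusted p = 0.0598), and in Unloading against Control the adjusted p was 0.0508 for Psmb10, 0.0683 for Psme1 and 0.0517 for Psme2.

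Control 3 also stood apart for the interferon response. The immunoproteasome genes Psmb8 and Psmb9, left out of the members, had 9.86 and 9.65 CPM in Control 3, against at most 5.42 and 3.07 CPM in any other library, and passed in no comparison. A list of 20 interferon response genes summed to 684 CPM in Control 3, 192 to 219 CPM in the other Control libraries, 152 to 165 CPM in Unloading and 171 to 234 CPM in Reloading. Without Control 3, Psmb10 was higher in Reloading than in Control (log2 fold change 0.55, edgeR adjusted p = 0.00538) and the call of Psme1 was lost (adjusted p = 0.0575), while Psmb10 against Unloading kept a log2 fold change of 1.02 (adjusted p = 1.49e-04).

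**Figure D5:**
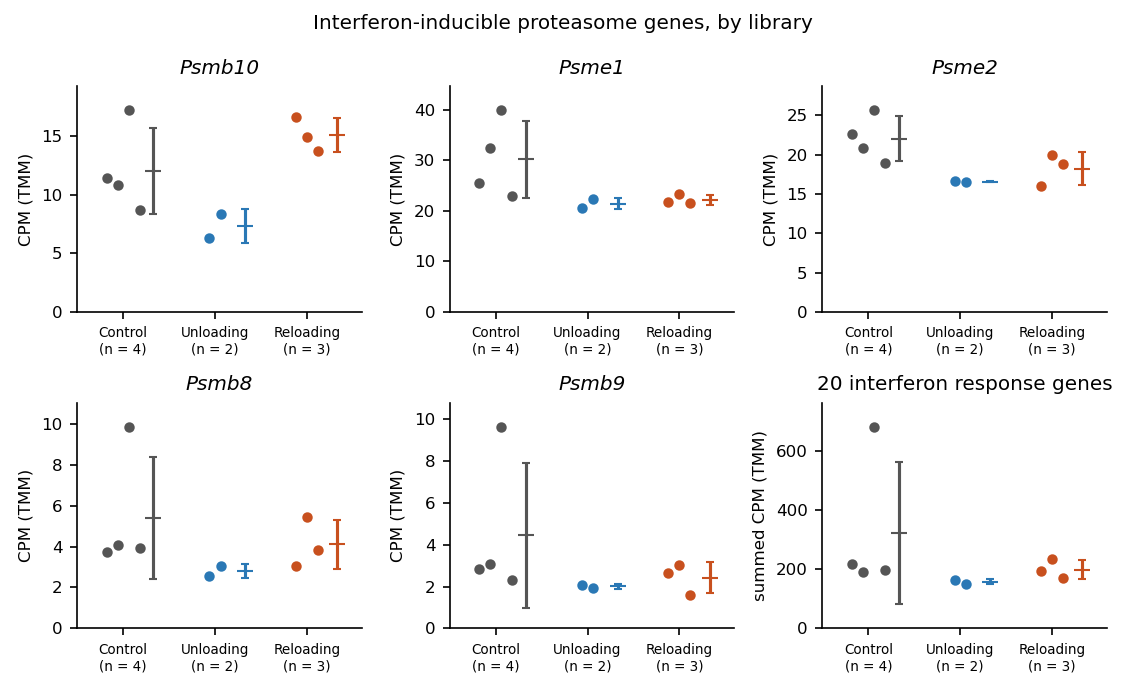
TMM-scaled CPM of Psmb10, Psme1, Psme2, Psmb8 and Psmb9 and the summed CPM of 20 interferon response genes in each of the 9 libraries by group, with mean and SD. Control 3 is the highest point in every panel, and Psmb10 is above both Unloading libraries in all Reloading libraries.

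Genes that work with the proteasome were listed in 3 groups of 36 tested genes in all. In Reloading against Unloading 4 were higher and 15 lower (52.8% called, beside 37.5% of all tested genes). In Unloading against Control 4 were higher and 1 lower (13.9% beside 9.9%), and in Reloading against Control 8 were higher and 11 lower (52.8% beside 43.5%). Whether the calls of these listed genes held with libraries left out is not given here, and Unloading had 2 libraries. Of 9 partners of the particle, 0 were higher and 5 lower in Reloading than in Unloading (55.6% called), among them Pomp, the maturation factor of the core, at -0.25 (edgeR adjusted p = 0.0160), and Sem1, a small lid subunit outside the Psm names, which had -0.26 against Unloading (adjusted p = 0.0459) and -0.49 against Control (adjusted p = 2.56e-04).

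Of 10 regulators of proteasome transcription, 1 was higher and 5 lower in Reloading than in Unloading, beside 18.5% higher and 19% lower of all tested genes. Nfe2l1 itself did not pass, with adjusted p = 0.604 against Unloading. Ddi2, the protease that cuts Nfe2l1 into its active form, measured 78.6, 70.5, 70.7 and 78.2 CPM in Control 1 to 4, 122 and 114 CPM in Unloading 1 and 2, and 87.5, 75.9 and 74.4 CPM in Reloading 1 to 3. Both Unloading libraries were above all others, and Ddi2 rose from Control to Unloading (log2 fold change 0.67 ± 0.08 (SE), adjusted p = 3.56e-04 by edgeR) and fell from Unloading to Reloading (log2 fold change -0.58 ± 0.09 (SE), adjusted p = 1.33e-04). Ngly1, the glycanase that also processes Nfe2l1, rose by 0.29 and then had -0.57 on the log2 scale (adjusted p = 0.0331 and 1.09e-04). Foxo4 was lower in Reloading (log2 fold change -0.73 ± 0.10 (SE), adjusted p = 4.13e-05), and of the NF-Y subunits Nfya was higher (log2 fold change 0.70 ± 0.17 (SE), adjusted p = 0.00484), Nfyb was lower (-0.50 ± 0.10 (SE), adjusted p = 0.00105) and Nfyc did not pass (-0.18, adjusted p = 0.134).

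Of 17 ubiquitin and delivery genes, 3 were higher and 5 lower in Reloading than in Unloading (47.1% called, beside 37.5% of all tested genes). Zfand2a, a stress-induced zinc finger protein that binds the 19S particle, measured 8.68, 12.3, 12.4 and 12.4 CPM in Control 1 to 4, 8.98 and 11.1 CPM in Unloading 1 and 2, and 45.0, 23.9 and 20.1 CPM in Reloading 1 to 3. Reloading 1 was the highest of the 3 Reloading libraries, all of which lay above the other groups (log2 fold change 1.55 ± 0.27 (SE), adjusted p = 4.57e-04 by edgeR). Ubqln1, a shuttle that carries ubiquitinated proteins to the proteasome, was higher (log2 fold change 0.43, adjusted p = 7.34e-04). Zfand5, an activator of the 26S particle, was lower at 421, 363, 383 and 388 CPM in Control 1 to 4, 432 and 419 CPM in Unloading 1 and 2, and 285, 282 and 274 CPM in Reloading 1 to 3 (log2 fold change -0.60 ± 0.08 (SE), adjusted p = 2.49e-05). In Unloading against Control, Nploc4, a cofactor of the unfoldase Vcp, was higher (log2 fold change 0.29, adjusted p = 0.0425 by edgeR).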

How the data were processed

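Polyadenylated RNA of 9 gastrocnemius samples was sequenced. Per the labels and file headers, the authors aligned reads with STAR 2.7.3a to GRCm38.p6 and counted read pairs per gene, unstranded, with featureCounts 2.0.3 (Ensembl release 102). The deposited counts are raw. The authors' DESeq2 tables gave symbols and biotypes, and the deposited mean signal in them (mean of counts divided by size factors) came within 1% of a recomputation for all 29316 genes. Their shrunken fold changes and p-values were not used.

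The test was edgeR 4.0.16 under R 4.3.3 (glmQLFit and glmQLFTest, two-sided) on the counts, in 1 fit of all 9 libraries with group as the only term, after filterByExpr (minimum count 10, minimum total 15) kept 14851 of the 34376 genes with counts. TMM factors were used, Benjamini-Hochberg adjustment ran over all tested genes, and SE was the log2 fold change over the root of F. Log2 fold changes kept edgeR's default prior count, and a prior count of 2 was used for log2 CPM. A single read pair equaled 0.0546 to 0.113 CPM. The labels do not say that each library is a separate animal, so p-values measure the spread between these libraries.

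Members and lists were chosen with earlier results of these data known. Values in every library are given for the catalytic and interferon-inducible subunits, the activators and inhibitor, Psmd4, Psmd11 and Psmd14, for the called member with the largest change in each class and comparison, and, chosen after their values were seen, for Psmd8, Psmd2, Psmd6, Psma1 and some listed partner genes. Up to 3 called partner genes per comparison and direction were eligible by size, and the values of 1 of them are not reported here. Of the listed symbols 1 could not be matched, and Psme2b was placed among the name matches after the files were seen. Counts of genes whose exons overlap another gene are uncertain, and 5 pseudogenes carry a member's name. Alternatives were DESeq2 1.42.0, other scalings, no filter, a robust fit, only the groups compared, replicate blocks and leaving out libraries; the ratio alternatives were added after seeing the data. The procedure was tested on simulated counts. Whether same-numbered libraries deviate together was checked by correlating their deviations from group means.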

Additional observations from a re-analysis of the deposited data

Results flagged for a closer look

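Of the 47 tested members, 1 had a Control library far from the other 3. Psme3ip1, a name match that binds Psme3, had 28.4 CPM in Control 2, with the next Control library at 25.6 CPM. Chance alone puts about 1 in 20 groups of 4 past the limit used.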

How the results depend on the processing

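Members given with values in every library, Psmd6 and Psma1 left out, had 1026 values under 18 alternatives. Of these, 916 stayed on their side of the threshold, and 59 lost and 46 gained a call. Among values not called with TMM, 27 changed sign, 4 of them with library totals. Sign also turned for 5 called values. All 5 arose with library totals in place of TMM, which moved the median of all genes from 0.03 to 0.27 in Reloading against Unloading: Psmd4 in that comparison (0.031), and against Control Psma7 (0.069), Psmb5 (0.057), Psmc3 (0.043) and Psmc5 (0.022). With library totals, 19 members were higher and 1 lower in Reloading against Unloading (core median 0.079, 19S median 0.16), and 21 higher and 2 lower against Control (core median 0.054, 19S median 0.31). Without the filter on low counts 8 members were lower in Reloading against Control, and the 19S median in Unloading against Control was 0.087; the cause was not tested. Without Control 2 and Reloading 1 the counts against Control were 4 higher and 7 lower, with fewer samples. In Unloading against Control, the count of higher members was 1 with only the compared groups, with the replicate block by title and without Control 2 and Reloading 1, and stayed at 2 or 3 under the other alternatives that kept all libraries; the count of lower members was 3 with DESeq2 and without the filter, and 1 with relative log expression factors, the robust fit, only the compared groups, either replicate block, and without Control 2 and Reloading 1.

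Leaving out 1 library at a time, the counts in Unloading against Control were 0 to 2 higher and 0 to 3 lower members and 121 (without Unloading 1) to 1518 genes, with 949 genes without Control 3. Lower members were 6 (without Unloading 2) to 11 in Reloading against Unloading and 9 (without Reloading 1) to 17 in Reloading against Control. Medians ranged from -0.21 to -0.14 for the core in Reloading against Unloading, -0.098 to 0.037 for the core and 0.046 to 0.098 for 19S in Unloading against Control, and 0.025 to 0.10 for 19S in Reloading against Control.

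Same-numbered libraries gave no sign of pairing by title number. By description number, pairing was neither shown nor excluded by so few pairs. Deviations correlated at -0.20 to 0.08 in 7 pairs by title number, 0 of them above 0.1. By description number they correlated at 0.02 to 0.36 in 6 pairs, of which 3 were above 0.1. Different-numbered pairs stood at -0.22 to 0.36 by title (5 of 19 above 0.1) and -0.22 to 0.12 by description (2 of 20). The largest value was that of Control 2 with Reloading 1, the libraries with skin keratins. With the block by title the 19S median in Reloading against Control was 0.10, and members called there were 5 higher and 11 lower; with the block by description they were 7 higher and 17 lower. The fold of the mean 19S to core ratio was 1.16 in Reloading against Unloading and 1.05 without Psmd11 and Psmd8. Against Control it was 1.28, 1.22 without Psmd11, 1.15 without both and 1.20 with counts divided by exon length. At these depths Psma8 and Psmb11 had too few counts to be tested.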
